A study of Mus musculus with 11 samples.

Results

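Homeostatic microglia genes are the genes by which resting microglia, the resident macrophages of the brain, are recognised. A set of 9 was followed here: Csf1r, Cx3cr1, P2ry12, P2ry13, Gpr34, Tmem119, Siglech, Fcrls and Sall1. They were taken by name from the 39017 genes of the count table. All 9 had a row and all 9 passed the filter on low counts in both tissues. Microglia depend on signals through the growth factor receptor Csf1r, sense neurons through the fractalkine receptor Cx3cr1, and extend processes towards released nucleotides through P2ry12. These genes are known to decline when microglia take on the activated states seen around dying neurons and protein deposits, in which other genes, such as Cst7, Itgax and Clec7a, are induced.

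The tissue came from mice that carry Camk2a-Cre and Dicer flox/flox (KO) and from controls, whose own genotype is not given in the sources used here. The Camk2a promoter drives Cre in excitatory forebrain neurons, not in microglia, and Dicer is the enzyme that cuts miRNA precursors, so the deletion is directed at neurons and not at microglia. Polyadenylated RNA of whole tissue was sequenced. Neocortex was taken from 3 KO males (D5130, D5132 and D5133) and 3 control males (D5129, D5134 and D5135). Hippocampal CA1 was taken from 2 KO males (D5130 and D5133), 2 control males (D5134 and D5135) and 1 control female (D5138). All 7 mice were 13 to 14 weeks old, and 4 of them gave both tissues. Values per library are listed in this order of animals. Each tissue had its own library kit, stranded for the neocortex and unstranded for CA1, so KO and control were compared within a tissue. In whole tissue, a change in the number of microglia and a change in RNA per microglial cell cannot be told apart.

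Gene counts summed to 43144097 to 58329441 reads in the neocortex libraries and 24806581 to 35684618 in the CA1 libraries. A member gene had 490 to 8093 reads in a neocortex library and 199 to 3905 in a CA1 library. Reads over the whole Dicer1 gene came to 63.3, 59.0 and 60.6 CPM (read counts scaled to a common library size) in KO neocortex, against 66.5, 59.3 and 62.4 CPM in control neocortex. In CA1 they came to 73.3 and 71.6 CPM in KO, against 74.0, 68.7 and 75.2 CPM in control. The exons flanked in the floxed allele are not given in the sources used here, so the whole-gene count is no check of the genotype labels. Summed markers of CA1 pyramidal cells stood at 358.8 to 372.2 CPM in KO CA1 and 485.2 to 529.6 CPM in control CA1, above the neocortex libraries (189.9 to 203.3 CPM in KO, 225.6 to 262.4 CPM in control). Summed markers of neocortical layers showed the reverse order, with 871.4 CPM or more in each neocortex library and 449 CPM or less in each CA1 library. Not every marker followed its sum. The layer marker Fezf2 averaged 45.2 and 44.5 CPM in KO and control CA1, against 34.3 and 34.2 CPM in KO and control neocortex. The CA1 marker Mpped1 averaged 61.8 and 75.7 CPM in CA1, against 75.4 and 73.3 CPM in the neocortex. Kits differed between the tissues, so these levels are descriptions.

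RefSeq (GRCm38.p6) gave a start region for 6 of the 9 genes. The bases ahead of the start of P2ry13 and P2ry12 are shown because these neighbouring nucleotide receptors had fold changes of opposite sign in both tissues, none of them called by edgeR, and those of Fcrls because it had the largest fold change of the 9 in CA1. For Fcrls, 36 of the 250 bases ahead of the RefSeq start lie ahead of the first annotated exon, and only these are shown. Each is written 5′ to 3′ along the gene (minus strand), with the PU box GAGGAA, a core motif of the macrophage factor PU.1, in capitals.
P2ry13 (chr3:59210883-59211132): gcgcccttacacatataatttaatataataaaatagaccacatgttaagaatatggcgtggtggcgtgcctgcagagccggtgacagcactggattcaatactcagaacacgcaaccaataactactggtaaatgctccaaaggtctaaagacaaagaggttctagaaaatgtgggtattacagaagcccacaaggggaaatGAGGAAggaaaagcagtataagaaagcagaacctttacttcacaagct
P2ry12 (chr3:59262986-59263235): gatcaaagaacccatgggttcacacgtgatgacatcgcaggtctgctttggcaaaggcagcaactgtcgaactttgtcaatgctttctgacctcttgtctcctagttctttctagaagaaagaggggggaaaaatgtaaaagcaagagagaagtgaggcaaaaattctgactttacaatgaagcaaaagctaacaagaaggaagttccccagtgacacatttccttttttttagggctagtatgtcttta
Fcrls (chr3:87263739-87263774): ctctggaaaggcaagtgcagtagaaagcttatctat
The motifs searched, on both strands, were the PU box GAGGAA, the composite ETS-IRF element (GGAA, a pair of any bases, GAAA), the MEF2 site (CTA, 4 of any base, TAG) and the SMAD palindrome GTCTAGAC. Over the 250 bases ahead of the start, 23.25% of 32851 RefSeq windows held the PU box, 2.301% the ETS-IRF element, 3.202% the MEF2 site and 0.1674% the SMAD palindrome. In the bases ahead of the first exon of the members, the single match was the PU box of P2ry13, from 48 to 43 bases before the start. For Fcrls only the 36 bases were searched, so its lack of a match cannot be set against these shares.

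The 9 genes lie on 7 chromosomes (GRCm38, from the count table). P2ry12 (chr3:59216271-59262831, minus strand) and P2ry13 (chr3:59207896-59210882, minus strand) are neighbours, and both lie within the span of Med12l on the opposite strand. Fcrls is at chr3:87250758-87263738, Tmem119 at chr5:113793729-113800446, Siglech at chr7:55768178-55778925, Sall1 at chr8:89027248-89044162, Cx3cr1 at chr9:119901616-120068282, Csf1r at chr18:61105572-61132149 and Gpr34 at chrX:13632089-13640858. Exonic overlap with another counted gene was limited to P2ry12 with Med12l (9 bases) and Csf1r with Hmgxb3, which share 873 bases at the 3′ end of Csf1r, 15.12% of its exonic length. In the unstranded CA1 libraries, reads in shared bases cannot be assigned to a strand. Hmgxb3 itself had a log2 fold change of 0.03 in CA1 (SE 0.0875, adjusted p = 0.923, edgeR) and -0.04 in the neocortex (SE 0.0673, adjusted p = 0.833).

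Csf1r was the most highly expressed member. In FPKM (CPM per kilobase of exon), Csf1r averaged 22.8 ± 1.51 in KO neocortex (SD, n = 3) and 23.4 ± 0.347 in control neocortex (SD, n = 3). In CA1 it averaged 20.8 ± 1.49 FPKM in KO (SD, n = 2) and 17.3 ± 0.378 FPKM in control (SD, n = 3). In each of the 4 groups its lowest library lay above the highest library of the next gene. A middle tier of P2ry12, Tmem119, Cx3cr1 and Fcrls held 11.5 to 12.2 FPKM in KO neocortex and 9.05 to 14.6 FPKM in control neocortex. In CA1 the same 4 genes held 8.02 to 10.6 FPKM in KO and 6.46 to 9.33 FPKM in control. Gpr34, Sall1, Siglech and P2ry13 formed the lowest tier, from 3.28 FPKM (P2ry13 in control CA1) to 6.43 FPKM (Gpr34 in control neocortex).

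The order within the middle tier differed between KO and control. In control neocortex P2ry12 came 2nd at 14.6 ± 2.06 FPKM and Fcrls 5th at 9.05 ± 0.276 FPKM, with the libraries of Fcrls apart from those of its neighbours Cx3cr1 and Gpr34. In KO neocortex the libraries of each neighbouring pair among Cx3cr1, Tmem119, Fcrls and P2ry12 overlapped. In control CA1 P2ry12 again came 2nd (9.33 ± 0.825 FPKM) and Fcrls 5th (6.46 ± 0.0155 FPKM), while in KO CA1 Fcrls came 2nd (10.6 ± 0.512 FPKM) and P2ry12 5th (8.02 ± 1.71 FPKM). Again, the libraries of each neighbouring pair of the middle tier overlapped in KO CA1. These orders are descriptions of levels and were not tested.

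**Figure D1:**
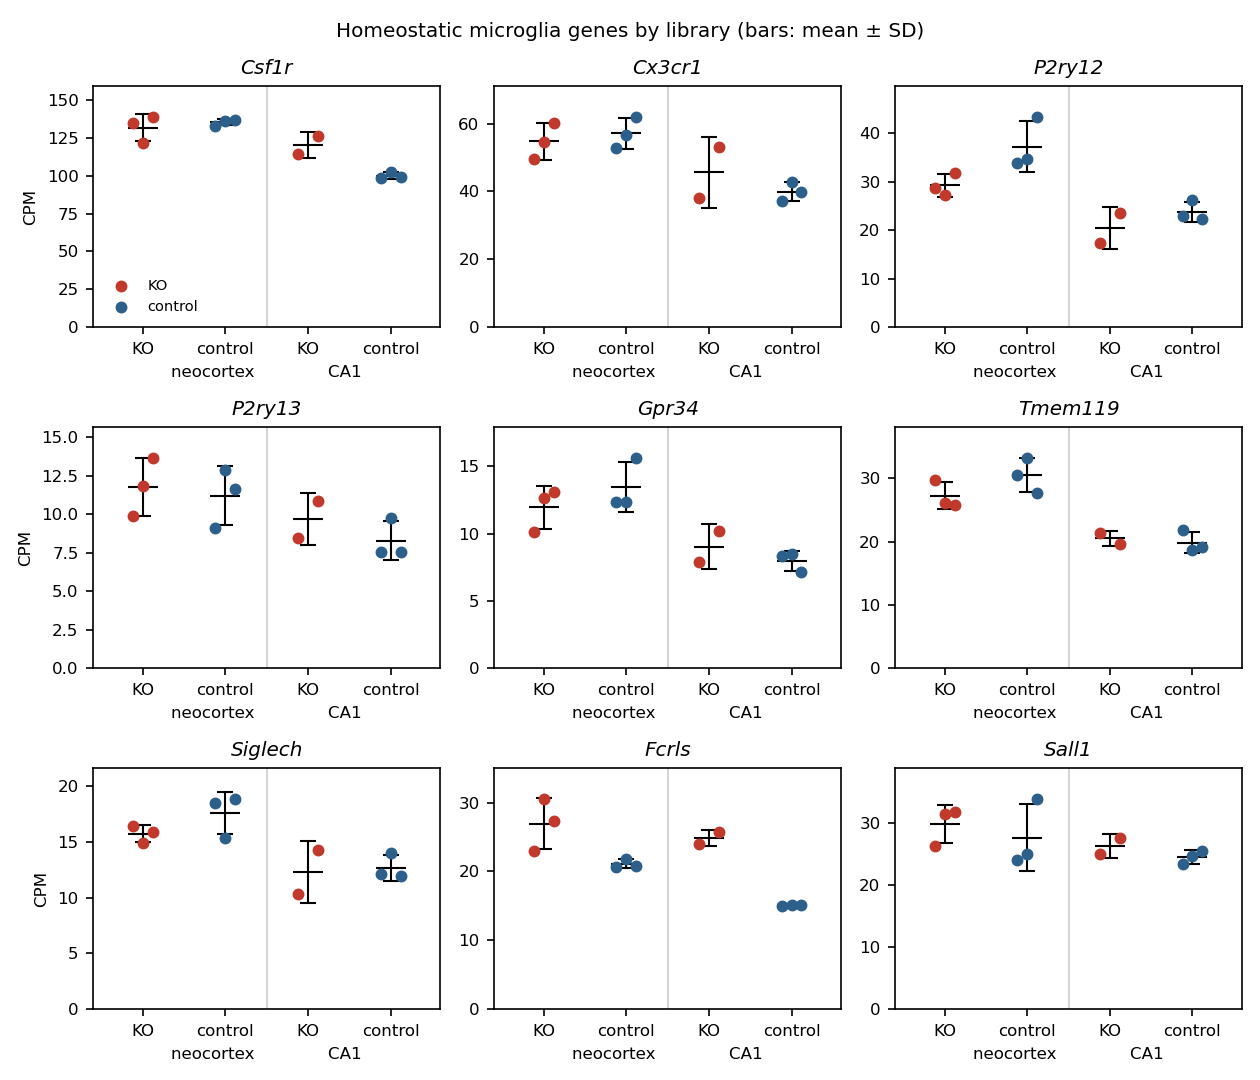
Level of each of the 9 genes in CPM (vertical axis, linear from 0) in every library, with KO (red) left of control (blue) in the neocortex and in CA1; bars show the mean and SD (n = 3 and 3 in the neocortex, 2 and 3 in CA1). KO and control points separate for Fcrls in both tissues, for Csf1r in CA1 and for P2ry12 in the neocortex.

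In CA1, 2 of the 9 genes rose in KO and none fell: Fcrls, by 64.6%, and Csf1r, by 20.2%. The other 7 did not pass. Over all 18274 genes tested in CA1, 2.47% rose and 1.41% fell, or 3.89% in either direction (edgeR quasi-likelihood F-test, two-sided, Benjamini-Hochberg adjusted p under 0.05 over all genes). The median log2 fold change of the 9 was 0.18, against -0.0004 over all genes tested, and 7 of the 9 had a positive sign. The median moved with single libraries: it was 0.02 without D5133 and 0.34 without D5130.

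Fcrls encodes an Fc receptor-like scavenger receptor of mouse microglia. It stood at 24.0 and 25.7 CPM in KO CA1, against 15.03, 15.08 and 15.10 CPM in control CA1. The KO libraries lay far above the controls, whose SD was 0.0363 CPM. The log2 fold change was 0.72 (SE 0.0938, 95% interval 0.52 to 0.92, adjusted p = 0.000932, edgeR). It passed whichever single library was left out, with values of 0.66 to 0.77.

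Csf1r, the receptor for the growth factors Csf1 and Il34, stood at 114.2 and 126.4 CPM in KO CA1, against 98.3, 102.4 and 99.1 CPM in control CA1. Both KO libraries lay above all controls. KO and control libraries did not overlap in 33.7% of all CA1 genes, and in 17.4% every KO library was above every control, as for 2 of the 9. The log2 fold change was 0.27 (SE 0.0662, 95% interval 0.12 to 0.41, adjusted p = 0.0390, edgeR). The call was lost without D5133 (0.19, adjusted p = 0.281), D5138 (0.26, adjusted p = 0.162), D5134 (0.25, adjusted p = 0.0824) or D5135 (0.28, adjusted p = 0.0539), and held without D5130 (0.34, adjusted p = 0.0364).

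The nucleotide and lipid receptors did not pass in CA1. P2ry12, the ADP receptor that steers microglial processes, stood at 17.3 and 23.5 CPM in KO, against 22.9, 26.1 and 22.2 CPM in control. The KO libraries fell on both sides of the lowest 2 controls, and the log2 fold change was -0.23 (SE 0.127, 95% interval -0.50 to 0.05, adjusted p = 0.397, edgeR). The value was -0.01 without D5130 and -0.46 without D5133, and passed in neither case. P2ry13, a related ADP receptor, stood at 8.48 and 10.9 CPM in KO and at 7.53, 9.77 and 7.56 CPM in control. Its log2 fold change was 0.22 (95% interval -0.13 to 0.56). Gpr34, a receptor for lysophosphatidylserine, stood at 7.86 and 10.2 CPM in KO and at 8.33, 8.46 and 7.11 CPM in control, or 0.18 on the log2 scale (95% interval -0.15 to 0.51).

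Cx3cr1, the receptor for the neuronal chemokine fractalkine, had the largest SD between KO CA1 libraries of the 9 genes (10.6 CPM), with 38.2 CPM in D5130 and 53.1 CPM in D5133, against 37.3, 42.7 and 39.9 CPM in control CA1. One KO library was among the controls and the other above all of them. The log2 fold change was 0.19 (SE 0.124, adjusted p = 0.504, edgeR), and -0.07 without D5133. Siglech, a member of the Siglec family of lectins, stood at 10.3 and 14.3 CPM in KO, against 12.1, 14.0 and 11.9 CPM in control, with overlapping groups. Its log2 fold change was -0.05 (95% interval -0.37 to 0.26).

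Tmem119, a membrane protein used as a microglial marker, stood at 21.3 and 19.7 CPM in KO CA1, against 21.8, 18.7 and 19.1 CPM in control CA1. The groups overlapped, and the interval of the log2 fold change ran from -0.17 to 0.27. Sall1, the transcription factor that holds the microglial identity programme, stood at 25.02 and 27.7 CPM in KO, against 23.4, 24.8 and 25.6 CPM in control. Its log2 fold change was 0.10 (SE 0.0915, 95% interval -0.10 to 0.29, adjusted p = 0.661, edgeR). In KO CA1, D5133 was higher than D5130 for 8 of the 9 genes, all but Tmem119.

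In the neocortex, none of the 9 genes passed, against 2.71% of 16971 tested genes, 1.51% higher and 1.20% lower (edgeR); 2 of the 9 had an unadjusted p under 0.05, as did 18.0% of all genes, and both passed with DESeq2. These were P2ry12, lower in all 3 KO libraries, and Fcrls, higher in all 3. The median log2 fold change of the 9 was -0.06, against 0.00 over all genes, and 3 of the 9 had a positive sign. It was -0.12 without D5133 and -0.03 without D5135.

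P2ry12 stood at 28.7, 27.2 and 31.8 CPM in KO neocortex, against 33.8, 34.6 and 43.2 CPM in control neocortex. Every KO library lay below every control, as in 12.4% of all genes, and D5135 was the highest control. The log2 fold change was -0.35 (SE 0.0985, 95% interval -0.56 to -0.13), with an adjusted p of 0.0909 by edgeR and 0.0181 by DESeq2. Without D5135 it was -0.23 (adjusted p = 0.180, edgeR).

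Fcrls stood at 23.0, 30.4 and 27.3 CPM in KO neocortex, against 20.7, 21.9 and 20.8 CPM in control neocortex. All KO libraries lay above all controls, as in 11.6% of all genes. The log2 fold change was 0.35 (SE 0.0955, 95% interval 0.14 to 0.56), with an adjusted p of 0.0757 by edgeR and 0.0182 by DESeq2. It passed with edgeR when D5130, the lowest KO library, was left out (0.45, adjusted p = 0.0359).

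The spike-in composition of the neocortex libraries fell into 2 sets, which the labels do not name. The first held D5130, D5132 and the control D5129, and the second held D5133 and the controls D5134 and D5135. P2ry12 had a log2 fold change of -0.28 within the first and -0.29 within the second, and Fcrls 0.37 and 0.36. With the set as a batch term the values were -0.28 for P2ry12 and 0.36 for Fcrls, and neither passed with edgeR (adjusted p = 0.184 and 0.147).

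Csf1r was nearly level in the neocortex, at 134.7, 121.8 and 138.4 CPM in KO, against 132.9, 136.0 and 136.6 CPM in control. Its log2 fold change was -0.04, with the narrowest 95% interval of the 9, from -0.16 to 0.09. Cx3cr1 stood at 49.4, 54.6 and 60.3 CPM in KO, against 52.8, 56.8 and 61.8 CPM in control. The groups overlapped, with a log2 fold change of -0.06 (95% interval -0.24 to 0.12).

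The other 5 genes also overlapped between KO and control neocortex. Tmem119 stood at 29.7, 26.2 and 25.8 CPM in KO, against 30.6, 33.1 and 27.7 CPM in control, or -0.16 on the log2 scale (95% interval -0.34 to 0.02). Siglech stood at 16.5, 14.9 and 15.9 CPM in KO, against 18.5, 15.4 and 18.8 CPM in control, or -0.16 on the log2 scale (95% interval -0.36 to 0.05). For Tmem119 2 of the 3 KO libraries lay below all controls, and for Siglech 1 of the 3. Gpr34 ranged over 10.1 to 13.1 CPM in KO and 12.4 to 15.6 CPM in control (log2 fold change -0.17, 95% interval -0.44 to 0.10). P2ry13 ranged over 9.88 to 13.6 CPM in KO and 9.13 to 12.9 CPM in control (0.08, 95% interval -0.24 to 0.39). Sall1 ranged over 26.3 to 31.7 CPM in KO and 24.0 to 33.8 CPM in control (0.11, 95% interval -0.20 to 0.42).

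**Figure D2:**
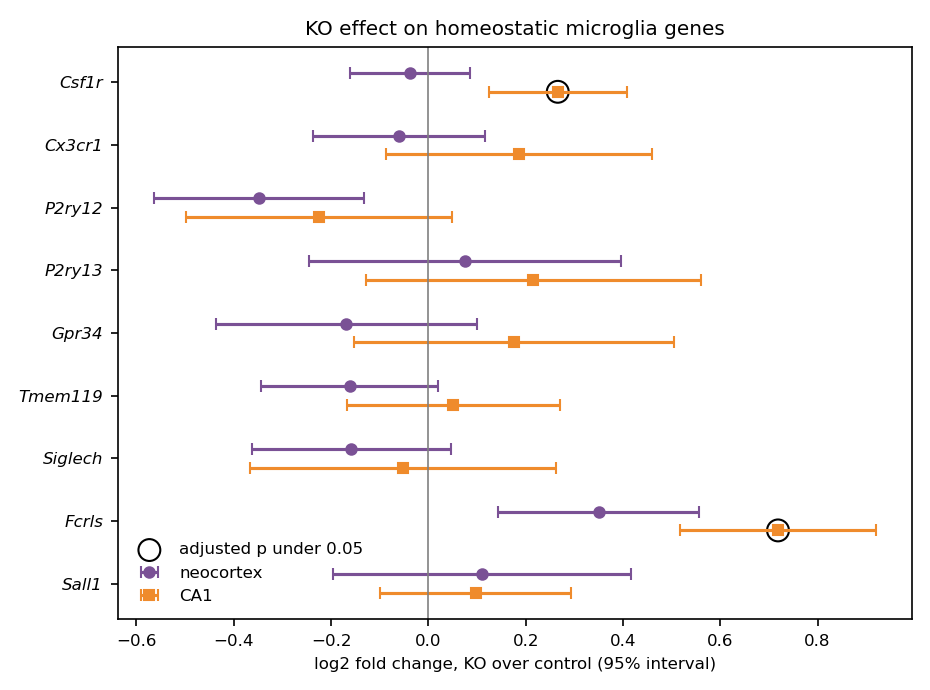
Log2 fold change, KO over control (horizontal axis), of the 9 genes in the neocortex (purple circles) and in CA1 (orange squares), with 95% intervals from edgeR; a ring marks an adjusted p under 0.05. The rings are on Fcrls and Csf1r in CA1, and the intervals of P2ry12 and Fcrls in the neocortex exclude 0 before adjustment.

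Whether the KO effect differed between the tissues was tested directly, as CA1 minus neocortex in 1 fit of the 11 libraries. None of the 9 differences passed with edgeR, against 0.0935% of 19256 genes, and none passed with DESeq2. An unadjusted p under 0.05 was reached by 2 of the 9, as by 9.51% of all genes. Csf1r had a difference of 0.30 (SE 0.0856, 95% interval 0.12 to 0.48, adjusted p = 0.228, edgeR) and Fcrls of 0.37 (SE 0.136, 95% interval 0.08 to 0.66, adjusted p = 0.370, edgeR). The difference was positive for 8 of the 9 genes, with Sall1 at -0.01 (95% interval -0.38 to 0.36). P2ry12 had a difference of 0.12 with a 95% interval of -0.26 to 0.50.

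**Figure D3:**
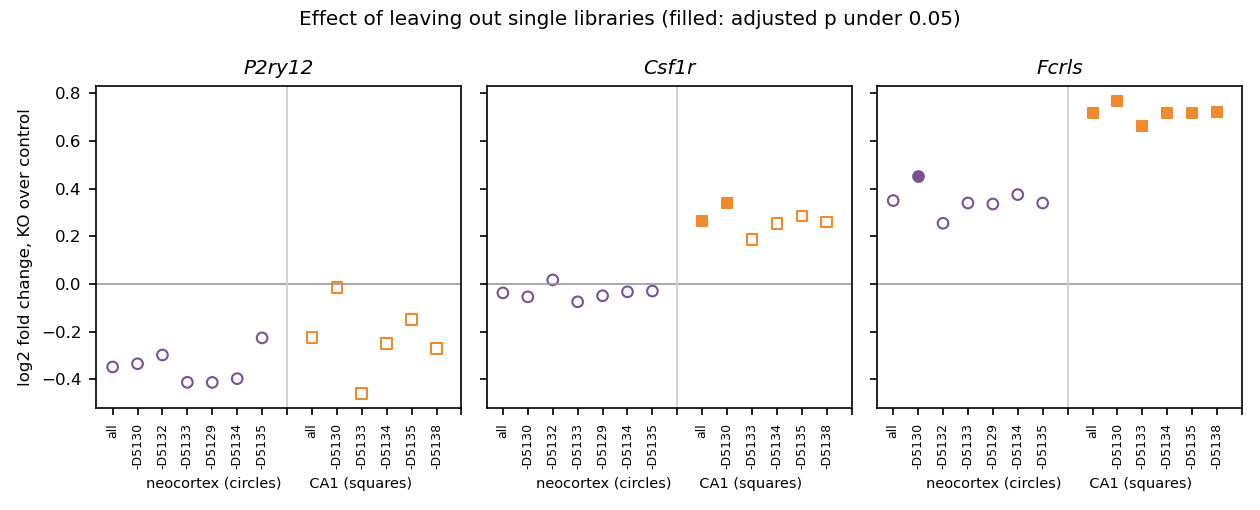
Log2 fold change, KO over control (vertical axis), of P2ry12, Csf1r and Fcrls with all libraries and with each library left out in turn (horizontal axis; the minus sign marks the animal left out), in the neocortex (circles) and CA1 (squares); filled symbols have an edgeR adjusted p under 0.05. Fcrls in CA1 stays filled throughout, at 0.66 to 0.77, while Csf1r in CA1 is filled with all libraries and without D5130.

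The ratio of Fcrls to P2ry12 reads, picked after the values were seen and given without a test, separated KO from control in both tissues. In the neocortex it was 0.802, 1.12 and 0.859 Fcrls reads per P2ry12 read in KO, against 0.612, 0.632 and 0.481 in control. In CA1 it was 1.38 and 1.09 in KO, against 0.655, 0.577 and 0.680 in control. Being a ratio within a library, it does not depend on how libraries were scaled, and it does not show which of the pair changed. In the neocortex its separation was fixed in advance, since every KO library lay above every control for Fcrls and below for P2ry12. The share of other gene pairs that separate was not counted.

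Among ligands and partners of these receptors, 2 of 14 tested genes rose in KO CA1, 1 fell and 11 did not pass (median log2 fold change 0.21). Over all genes tested with edgeR, 2.47% rose and 1.41% fell in CA1, and 1.51% rose and 1.20% fell in the neocortex. An unadjusted p under 0.05 was reached by 17.3% in CA1 and 18.0% in the neocortex. These shares are the background of this and the following lists. Tgfb1, the cytokine on which the homeostatic state depends, averaged 6.46 ± 0.742 CPM in KO CA1 (SD, n = 2) and 3.64 ± 0.374 CPM in control CA1 (SD, n = 3), or 0.83 on the log2 scale (SE 0.170, adjusted p = 0.0151, edgeR). Nrros, which presents latent TGF-β1 on microglia, had 0.74 (SE 0.154, adjusted p = 0.0165, edgeR). Cx3cl1, the neuronal ligand of Cx3cr1, fell to 137.3 ± 11.04 CPM in KO CA1 (SD, n = 2), against 167.8 ± 7.06 CPM in control CA1 (SD, n = 3), or -0.29 on the log2 scale (SE 0.0675, adjusted p = 0.0295, edgeR). Entpd2, an enzyme that hydrolyses extracellular ATP, did not pass (0.34, adjusted p = 0.140). None of the 14 passed without D5138; 1 fell and none rose without D5130, and 1 rose and none fell without D5133.

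In the neocortex none of the 14 ligand and partner genes passed with edgeR or DESeq2. With edgeR 4 had an unadjusted p under 0.05, against 18.0% of all genes. Il34, the neuronal ligand of Csf1r, averaged 56.3 ± 4.16 CPM in KO and 66.1 ± 4.39 CPM in control (SD, n = 3 each), or -0.23 on the log2 scale (SE 0.0710, adjusted p = 0.110, edgeR). Itgb8, an integrin subunit that activates TGF-β, had 0.21 (adjusted p = 0.134), Tgfb1 0.32 (adjusted p = 0.226) and the ATP release channel Panx1 -0.21 (adjusted p = 0.269). Csf1, picked by name as the other ligand of Csf1r, had 0.03 in the neocortex (adjusted p = 0.941, edgeR) and 0.19 in CA1 (adjusted p = 0.289). Il34 had 0.04 in CA1 (adjusted p = 0.880).

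Signalling proteins downstream of the member receptors had 4 of 18 genes higher in KO CA1, none lower and 14 not passing (median 0.36). The highest fold was that of Tyrobp, an adaptor of immune receptors, at 1.39 (SE 0.209, adjusted p = 0.0110, edgeR), followed by Dock2 and Rac2, which act in cell movement, at 0.88 (adjusted p = 0.00869) and 0.85 (adjusted p = 0.0368), and Hcls1 at 0.66 (adjusted p = 0.0368). In the neocortex 1 of 18 passed, Tyrobp at 0.64 (SE 0.101, adjusted p = 0.00874, edgeR). Without D5133 none passed in either tissue; in CA1 none passed without D5130, 1 without D5135 and 2 without D5138.

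Transcription factors of the microglial lineage moved in both directions in CA1, with 2 of 16 higher, 2 lower and 12 not passing (median 0.12). Irf8, a macrophage factor, rose by 1.01 on the log2 scale (SE 0.223, adjusted p = 0.0216, edgeR). Mef2c fell by 0.39 (SE 0.0835, adjusted p = 0.0201, edgeR) and Bhlhe41 by 0.37 (SE 0.0827, adjusted p = 0.0232, edgeR); neurons also express Mef2c. All 4 calls were lost without D5133 or without D5138. In the neocortex none of the 16 passed with edgeR or DESeq2. An unadjusted p under 0.05 was reached by 1, against 18.0% of all genes: Bhlhe41 at -0.29 (adjusted p = 0.224, edgeR).

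A further 28 genes reported as high in resting microglia were compared with the 9. In CA1 5 of the 28 rose, none fell and 23 did not pass (median 0.28). Csf3r, a cytokine receptor, had 1.04 (SE 0.175, adjusted p = 0.00490, edgeR), the secreted protein Olfml3 0.60 (adjusted p = 0.0110), the ribonuclease Rnase4 0.61 (adjusted p = 0.0139) and the matrix protein Sparc 0.62 (adjusted p = 0.0171). None of the 28 passed without D5133, and 3 passed without D5138. The neocortex had 1 of the 28 higher, 1 lower and 26 not called (median 0.05). Sparc had 0.26 (SE 0.0545, adjusted p = 0.0282, edgeR), and the crystallin Crybb1, found in immature microglia, fell to 2.08 ± 0.160 CPM in KO neocortex, against 3.32 ± 0.335 CPM in control neocortex (SD, n = 3 each), or -0.68 (SE 0.163, adjusted p = 0.0478, edgeR). None of the 28 passed in the neocortex without D5129, D5130, D5132 or D5133.

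Activated and pan-microglial genes in the same libraries give the setting of these values. Of 24 tested genes reported to rise in disease-associated microglia, 15 rose in KO CA1 and 12 in KO neocortex, and none fell with edgeR; the medians were 0.81 and 0.33. In CA1 the chemokine Ccl6 averaged 9.95 ± 1.59 CPM in KO (SD, n = 2) and 1.73 ± 0.146 CPM in control (SD, n = 3), or 2.51 on the log2 scale (SE 0.177, adjusted p = 1.1e-05, edgeR). Cst7, a cystatin, averaged 3.21 ± 0.816 CPM in KO CA1 and 0.0594 ± 0.0607 CPM in control CA1, so its fold rests on few control reads. In the neocortex Ccl6 averaged 5.77 ± 1.33 CPM in KO and 1.86 ± 0.438 CPM in control (SD, n = 3 each; log2 fold change 1.62, SE 0.214, adjusted p = 0.00602, edgeR). Without D5133, 11 of these genes rose in CA1 and 2 in the neocortex, where 5 rose without D5129 and 6 without D5132.

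Of 26 genes of microglia in general, 13 rose in KO CA1 and 5 in KO neocortex, and none fell (medians 0.66 and 0.28). The complement subunit C1qb averaged 72.9 ± 1.62 CPM in KO CA1 (SD, n = 2) and 35.1 ± 0.876 CPM in control CA1 (SD, n = 3). In the neocortex it averaged 70.8 ± 5.73 CPM in KO and 50.5 ± 5.24 CPM in control (SD, n = 3 each; log2 fold change 0.49, SE 0.0822, adjusted p = 0.0123, edgeR). Itgam, picked by name as a pan-myeloid integrin, had 0.02 in CA1 (adjusted p = 0.958, edgeR) and -0.16 in the neocortex (adjusted p = 0.381). Without D5133 the count became 6 in CA1 and 0 in the neocortex, where it was 2 without D5129 and 3 without D5132 or D5135.

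**Figure D4:**
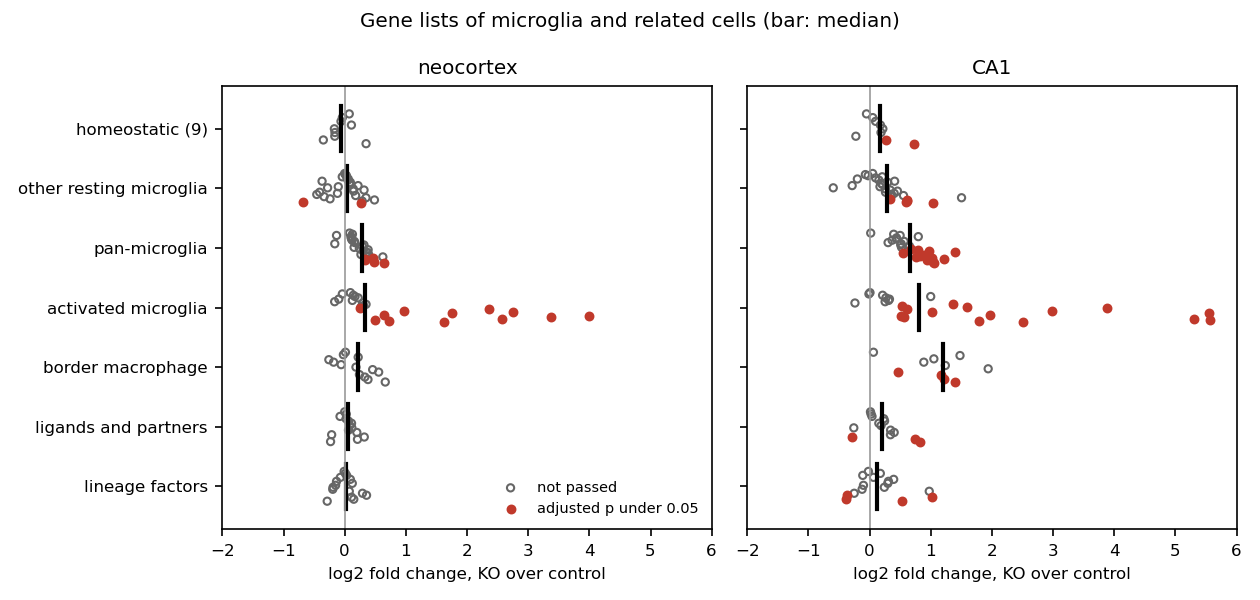
Log2 fold change, KO over control (horizontal axis), of each tested gene in 7 gene lists (rows), in the neocortex (left) and CA1 (right); red filled points have an edgeR adjusted p under 0.05, and the black bar is the list's median. The medians of the 9 homeostatic genes are -0.06 in the neocortex and 0.18 in CA1, with Fcrls the highest of the 9 at 0.35 and 0.72. Activated microglia genes extend past 5 in CA1 (Cst7, Clec7a and Itgax). These folds rest on few control reads, with control means of 0.0594, 0.0328 and 0.189 CPM.

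Per read of the 26 pan-microglial genes, whose sum was higher in KO, the 9 genes had fewer reads in KO tissue. Together they had 54.8 to 57.3 reads per 100 reads of the 26 pan-microglial genes in KO CA1, against 82.4 to 86.3 in control CA1. In the neocortex they had 64.4 to 68.1 in KO and 78.8 to 92.9 in control. P2ry12 had 3.56 to 4.33 reads per 100 in KO CA1, against 7.39 to 8.61 in control CA1, and Fcrls 4.72 to 4.92 in KO CA1, against 4.97 to 5.17 in control CA1. In the neocortex Fcrls had 4.77 to 5.93 reads per 100 in KO, against 4.93 to 5.225 in control. There Fcrls, P2ry13 and Sall1 overlapped between KO and control. By this measure every KO library lay below every control for 9 of 9 members in CA1 and 6 of 9 in the neocortex. The same was true of 85.3% of all genes in CA1 and 51.0% in the neocortex, so the count sets the 9 little apart from other genes. The 9 genes summed to 266.6 to 311.4 CPM in KO CA1, against 246.7 to 262.1 CPM in control CA1. In the neocortex they summed to 328.3 to 358.0 CPM in KO and 334.8 to 370.1 CPM in control. The pan-microglial sum itself was 486.9 to 543.4 CPM in KO CA1, against 290.9 to 303.7 CPM in control CA1. The lower ratio in CA1 thus came with a higher pan-microglial sum, not with a lower sum of the 9. As a choice made after seeing the data, 8 activation genes (complement, receptor and protease genes) were taken out of the pan-microglial sum. Then 8 of 9 lay below in CA1 and 1, Fcrls, lay above, and 5 of 9 lay below in the neocortex. The direction for Fcrls in CA1 thus depended on which genes were in the sum. By the same sum, 75.11% of all genes lay below in CA1 and 31.31% in the neocortex.

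Markers of other macrophages and blood cells were measured in the same libraries. Of perivascular and meningeal macrophage markers, 4 of 10 tested rose in KO CA1 (median 1.19), and the 14 genes of the list summed to 42.7 to 46.1 CPM in KO CA1, against 25.8 to 30.8 CPM in control CA1. Cd163 had a log2 fold change of 1.40 (SE 0.270, adjusted p = 0.0107, edgeR), Mrc1 of 1.22 (adjusted p = 0.0132), F13a1 of 1.16 (adjusted p = 0.0216) and Stab1 of 0.47 (adjusted p = 0.0454), and none of the 14 was at 0 in every library. None passed without D5133, 1 passed without D5130 and 2 without D5138. In the neocortex none of 13 passed with edgeR or DESeq2, none had an unadjusted p under 0.05, and the sums were 32.2 to 40.4 CPM in KO and 32.2 to 36.4 CPM in control. The part of these cells in the higher Fcrls and Csf1r of KO CA1 was not tested.

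Of markers of blood monocytes and neutrophils, 1 of 5 tested genes rose in KO CA1, Ace at 0.59 (adjusted p = 0.0207, edgeR). The call was lost without D5138, and also without D5133, which left 1 KO library. In CA1, 2 of the 5 had an unadjusted p under 0.05, as did 17.3% of all genes. The other was Ccr2 at 2.04 (adjusted p = 0.0850, edgeR). It averaged 0.503 CPM in KO and 0.122 CPM in control, so its fold rests on few reads. Ly6c2 had 0.09 and Mmp9 -0.03. None of 7 passed in the neocortex with edgeR or DESeq2. The list summed to 53.2 to 95.2 CPM in KO CA1, against 89.8 to 155.1 CPM in control CA1, and to 83.0 to 231.0 CPM in KO neocortex, against 183.3 to 197.2 CPM in control neocortex. Most of the sum was Nr4a1, which neurons also express as an activity gene, at 56.1 ± 32.3 CPM in KO CA1 (SD, n = 2) and 111.3 ± 32.5 CPM in control CA1 (SD, n = 3; adjusted p = 0.519, edgeR). The median log2 fold change of the list in CA1 was 0.09. Its neutrophil marker Ly6g was at 0 in all 11 libraries. Genes of dividing cells had none of 14 passing in CA1 and none of 13 in the neocortex with edgeR or DESeq2 (0 and 1 at an unadjusted p under 0.05).

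The 6 genes whose levels most resembled the mean of the 9 across the 11 libraries were Ap4m1, Tbc1d12, Pros1, Id3, Hps5 and Gnal. The measure was the correlation with the mean log2 CPM of the 9 after centring within each tissue, and Pearson's r was 0.849, 0.847, 0.843, 0.837, 0.835 and 0.833. Over the 10784 genes compared the median r was -0.04. The 9 did not share one profile: r with the mean of the other 8 was 0.945 for Cx3cr1 and 0.845 for Gpr34, but 0.352 for Siglech, 0.241 for P2ry12, 0.162 for Fcrls and -0.409 for Tmem119. The libraries share animals and depth, so these are descriptions. Of the 6, Id3 passed between KO and control in CA1 (log2 fold change 0.49, SE 0.105, adjusted p = 0.0193, edgeR), and none passed in the neocortex.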

How the data were processed

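Polyadenylated RNA of 11 libraries was measured. The deposited values are raw read counts for Ensembl genes, not normalized. The submitters' processing notes name GSNAP, bedtools, SAMtools, FastQC and the build GRCm38. Versions, the counting rule and the strand setting used in counting are not given in the sources used here. Of 39109 entries in the table, 92 are ERCC spike-in RNAs and were left out of library sizes and tests (0.113% to 0.686% of neocortex reads). Symbols came from GENCODE M21 (37693 of 39017 identifiers matched, 96.6%).

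KO was compared with control inside each tissue by edgeR 4.0.16 (R 4.3.3): TMM scaling, filterByExpr, robust quasi-likelihood F-test, two-sided, Benjamini-Hochberg adjustment over all genes tested, threshold 0.05. SE is the absolute log2 fold change over the square root of F, and intervals use the test's degrees of freedom. CPM uses TMM-scaled library sizes, and FPKM divides it by union exon length. These lengths came from GENCODE M21, whose gene bounds differ from the count table's for some members. Csf1r, for one, starts at 61100598 there and at 61105572 in the count table. FPKM levels between genes are therefore approximate. DESeq2 1.42.0 was an alternative, with RLE factors, no low-count filter, 1 joint fit, spike-in scaling, spike-in sets and single libraries left out. The model was tested on simulated data.

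Members and gene lists were chosen with earlier results of these data known, and no set test was run. Named genes are the 9 members, up to 4 genes of each list with the smallest p (others are said to be picked by name; some genes the rule takes are counted but not reported here), and the 6 genes most like the members with at least 5 CPM in both tissues (correlations on log2 CPM, prior count 2). With edgeR, of excitatory neuron markers 0 of 8 passed in the neocortex and 1 of 8 fell in CA1 (Neurod6); of neocortical layer markers 0 of 8 passed in either tissue; of CA1 markers 1 of 6 fell in the neocortex (Wfs1) and 2 of 6 in CA1 (Pou3f1 and Wfs1). With DESeq2, 1 excitatory neuron marker rose in the neocortex and 3 fell in CA1, 2 neocortical layer markers fell in the neocortex and 0 passed in CA1, and 2 and 3 CA1 markers fell in the neocortex and in CA1.

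Animal names in the labels pair the tissues of 4 animals. Deviations from group means correlated with r of 0.0587 to 0.0781 within an animal and -0.0957 to 0.0268 between animals of a genotype. Libraries of a group differed by a chi-square per gene of 9.99 to 22.1, so none were copies. Depth gave at least 199 reads per member and library.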

Additional observations from a re-analysis of the deposited data

How the results depend on the processing

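Fcrls in CA1 passed under every alternative run (DESeq2, RLE, no low-count filter, joint fit and each library left out), at 0.66 to 0.77. The number of the 9 genes called was 1 to 2 in CA1 and 0 to 1 in the neocortex with single libraries left out; in the neocortex it was 2 with DESeq2 or without the low-count filter and 1 in the joint fit. All genes called in the neocortex (460) numbered 913 with DESeq2, 770 unfiltered, 191 with spike-in set as a term, 11 and 77 within the first and second set, 4 with spike-in scaling and 19 to 430 with libraries left out; 19 was without D5133. All genes called in CA1 (710) numbered 1467 unfiltered and 232 to 732 with libraries left out, 232 being without D5133 and 244 without D5138. Spike-in scaling moved the median of all neocortex genes to 1.06 and the fold changes to 0.75 for P2ry12, 0.82 for Tmem119, 1.02 for Cx3cr1, 0.96 for Siglech, 1.02 for Csf1r, 0.96 for Gpr34 and 1.41 for Fcrls, so P2ry12 stood below that median and Fcrls above it; none passed. Other changes of sign, none of them past the threshold, were Cx3cr1 at 0.0012 with the set as a term and 0.030 within the second set, and Csf1r at 0.028 within the second set. With libraries left out, neocortex fold changes ran from -0.055 to 0.19 for P2ry13, -0.14 to 0.0086 for Cx3cr1, -0.075 to 0.017 for Csf1r, and CA1 ones from -0.0082 to 0.12 for Tmem119, -0.30 to 0.17 for Siglech, -0.074 to 0.41 for Cx3cr1 and -0.022 to 0.36 for Gpr34. Differences between tissues then ran from -0.20 to 0.062 for Sall1, -0.12 to 0.30 for P2ry12, -0.062 to 0.28 for P2ry13, -0.025 to 0.43 for Cx3cr1 and -0.16 to 0.30 for Siglech. The cause of these shifts was not tested. With animal as a block (replicate block; 11 libraries, 9 coefficients, 2 residual degrees of freedom) 0 of the 9 differences passed and 114 of all genes did, against 18 without it; Siglech was -0.029 and Sall1 0.15. A lone KO library in CA1 was assumed to vary like the controls. Sex cannot be separated from D5138, the 1 female.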
